A study of Caenorhabditis elegans with 4 samples.

Results

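An isolated NFYA-1 peak is here a peak interval that stands far from any other interval of the same list. In the peak list that combines both replicates, 538 of 5320 intervals (10.1%) were under 1000 bp wide and had a gap of at least 20000 bp to the next interval on each side. They were chosen by interval width and gap in that list, so their widths and gaps are a description and carry no test. Of the other 4782 intervals, 4582 were under 1000 bp wide and 11 had both gaps but were too wide. Among the 4782, 12 lay at the ends of chromosomes in the list and had a neighbour on only 1 side. Of those 12, 4 were narrow with a long gap on that side.

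The study mapped NFYA-1 by chromatin immunoprecipitation and sequencing (ChIP-seq) in Late Embryo Caenorhabditis elegans of strain OP404, labelled hermaphrodite and grown at 20 °C. All 4 samples, 2 ChIP libraries with anti-GFP antibodies and 2 input libraries, share the unc-119(ed3) III background. They also share the bombarded transgene wgIs404, which carries nfya-1::TY1-GFP-3xFLA with unc-119(+) as the rescue. Every library came from that single transgenic strain and from whole embryos, so the signal is an average over cell types, and the tagged protein stood in for the native one. The labels do not say whether the replicates were separate cultures. The data were 3 peak lists, 1 for each ChIP library and 1 for the combined data, and the depth of the libraries is unknown.

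NF-Y is a transcription factor of NF-YA, NF-YB and NF-YC subunits. NF-YB and NF-YC pair through histone folds, and NF-YA reads the CCAAT box, an element found in many promoters. In C. elegans, NFYA-1 is one of the NF-YA proteins, and NF-Y is known for restricting expression of the Hox gene egl-5. The autosomes of this worm have gene-dense central regions with little recombination and arms with more recombination and more repeats. The peak lists use WormBase build WS180, and no sequence or gene annotation of that build was used here, so the sites are named by position and were assigned to no gene.

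Strength was read from the q-value that the authors' peak caller gave each peak, shown as −log10 q, which is larger for stronger peaks and moves with depth as well as enrichment. The isolated peaks covered the strength range of the list except its strongest end. Their −log10 q ran from 3.49 to 124, with a median of 7.76 (order-statistic 95% interval 7.01 to 8.41). The other peaks under 1000 bp, called the other narrow peaks here, had a median of 7.98 (7.77 to 8.15), so the intervals of the medians overlapped. The strongest 10% of the isolated peaks began at 22.2, against 28.6 for the other narrow peaks. In the strongest of 10 equal parts of the list by q (deciles, numbered from the strongest), 29 of 532 peaks were isolated (5.45%), and 111 peaks of that decile were 1000 bp or wider. Among its narrow peaks the share was 6.89%, and it lay between 8.51% and 13.4% in the other deciles.

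Isolated peaks had widths like those of other peaks with few close neighbours. Their median width was 340 bp (quartiles 269 and 435), against 347 bp (274 and 470) for the other narrow peaks. A width of 500 bp or more was reached by 89 of 538 isolated peaks (16.5%) and by 988 of 4582 other narrow peaks (21.6%). Narrow peaks whose smaller gap was 5000 to under 20000 bp had a median of 328 bp, with 16.7% at 500 bp or more, so the difference from the other narrow peaks was not particular to isolated ones. On the X chromosome they were wider, with a median of 407 bp against 306.5 to 335.5 bp on the autosomes. The other narrow peaks of X had a median of 386 bp and those of the autosomes 323 to 358 bp, so wider intervals on X were not limited to isolated sites.

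The 538 peaks stood in much of the genome because of their gaps. The smaller flanking gap had a median of 29723 bp and reached 186295 bp, and the larger one had a median of 51826 bp. Together the stretches between their neighbours covered 42.4 Mb, or 42.6% of the span of peaks on the 6 chromosomes, from 21.1% on III to 57.4% on V. Of the 538, 341 (63.4%) had another isolated peak as the next peak on at least 1 side. The neighbour of a member already has 1 gap of at least 20000 bp, so the rule itself favours such series. This share is a description and was not tested against a background. The longest series ran over 9 isolated peaks on II from 1402242 to 2148636, and 2 of the 9 were found in both replicates. A series of 7 lay on the same left part of II, from 650407 to 1085271. Another series of 7 lay on X from 6840824 to 7151754, and its strongest member had a −log10 q of 94.2.

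Chromosomes V and X held the most isolated peaks. There were 126 on V, 117 on X, 97 on II, 82 on IV, 76 on I and 40 on III. Per Mb of span, X had 6.76, II 6.35, V 6.04, I 5.05, IV 4.71 and III 2.91. V and X together held 45.2% of the isolated peaks (exact 95% interval 40.9 to 49.5). V alone held 23.4% of the isolated and 15.0% of the other peaks. X held 21.7% and 12.5%, and III held 7.43% and 22.9%. Gaps grow longer where peaks are fewer, so the rule itself ties isolation to density, and these shares are a description. Of the peaks on each chromosome, 16.4% were isolated on X (13.8 to 19.3), 15.0% on V (12.6 to 17.6) and 11.3% on II (9.25 to 13.6). The shares were 9.61% on IV, 8.29% on I and 3.52% on III (2.53 to 4.76). Density ran from 82.6 peaks per Mb on III to 40.4 on V. The order of the 2 did not match throughout: II had 56.3 peaks per Mb and IV 49.0, yet a larger share was isolated on II. The intervals of those 2 chromosomes overlapped.

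On V, isolated peaks were most frequent in the middle and right parts of the chromosome. With each span cut in 3 equal parts, 57 of 314 peaks in the middle part of V were isolated (18.2%, exact 95% interval 14.05 to 22.9). The left part of V had 29 of 299 (9.70%, 6.59 to 13.6) and its right part 40 of 229 (17.5%, 12.8 to 23.0). On I, II and IV the middle part had the lowest share of the 3 parts. On II it was 23 of 326 (7.06%, 4.52 to 10.4), against 39 of 228 (17.1%, 12.5 to 22.6) on the left and 35 of 305 (11.5%) on the right. The middle parts of I and IV had 6.70% and 8.39%, and the outer parts of these 2 chromosomes had 9.09% to 10.7%, with overlapping intervals. On III all 3 parts were low, at 5.72%, 2.83% and 2.41% from left to right. X had 20.1%, 16.4% and 12.9% from left to right. Over the genome, 360 of 538 isolated peaks lay in the outer parts (66.9%, 62.8 to 70.9), which are 2 of the 3 equal parts of each span. The share of the other peaks was 63.5%, inside that interval. Without V, these shares were 70.6% (65.97 to 74.99) and 63.4%, which is below the interval. With V kept and each outer part cut at 25% of the span, they were 54.1% (49.8 to 58.4) and 43.8%, again below the interval. The comparison of outer parts therefore depended on the cut and on V.

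**Figure D1:**
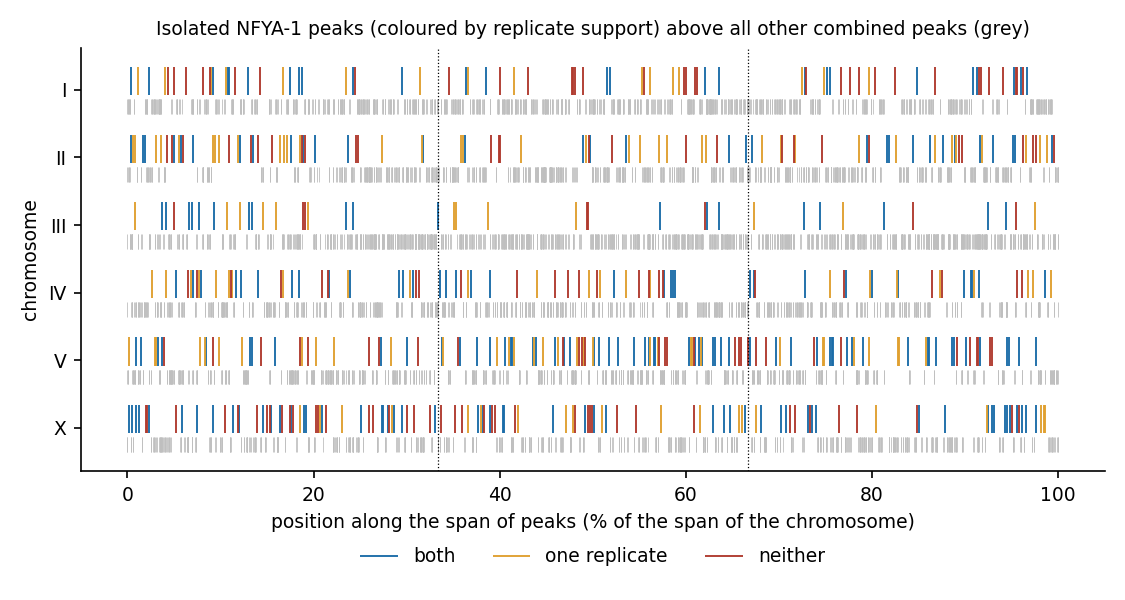
Each coloured line is 1 of the 538 isolated peaks, placed by its position along the span of peaks of its chromosome (x axis, % of the span) and coloured by overlap with both replicates, a single replicate or neither; grey lines below are all other combined peaks and dotted lines divide the span into 3 equal parts. III carries 40 coloured lines and V carries 126, of which 57 lie in the middle part.

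**Figure D2:**
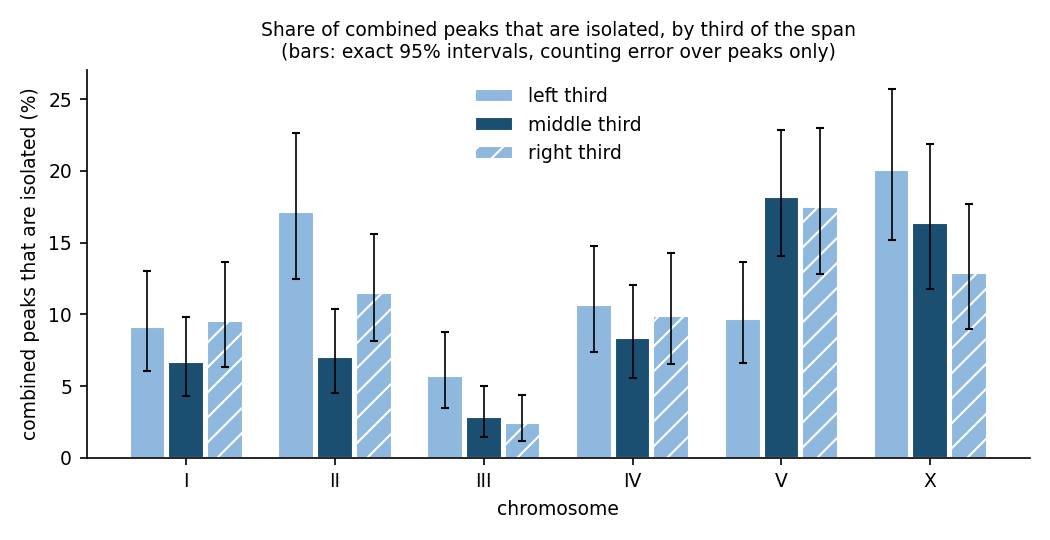
Bars give the share of combined peaks that were isolated (y axis, %) in the left, middle and right part of each chromosome, with exact 95% intervals for counting error over peaks. The middle bar is the lowest on I, II and IV and stands at 18.2% on V, and all 3 bars of III lie below 6%.

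Most isolated peaks were seen in at least 1 replicate. Support was counted as an overlap of at least 1 bp with a peak of a replicate list. Of the 538, 227 were found in both replicates (42.2%, exact 95% interval 38.0 to 46.5), where 46.4% of all 5320 combined peaks were. In neither replicate were 167 (31.0%, 27.2 to 35.1), against 32.1% of all combined peaks. Both shares were near the background, with intervals that cover counting error over peaks only. The combined list, by its name, comes from the same libraries, so this support is not independent of the rule and was not tested. The 4582 other narrow peaks had 45.4% in both and 33.3% in neither. After these were weighted to the strength deciles of the isolated peaks, 43.4% were in both and 33.8% in neither, a difference of -1.25 percentage points for the share in both.

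Single-replicate support leaned to replicate 2. Replicate 1 alone held 43 isolated peaks (7.99%, 5.84 to 10.6), where 7.39% of all combined peaks fell. Replicate 2 alone held 101 (18.8%, 15.6 to 22.3), where 14.1% of all combined peaks fell. For the other narrow peaks the replicate 2 share was 13.9% (12.9 to 14.9) and the weighted share was 14.8%. On the autosomes, replicate 2 alone held 91 of 421 isolated peaks (21.6%) and replicate 1 alone 33 (7.84%), and on X each held 10 of 117 (8.55%). The other narrow peaks also leaned to replicate 2 on the autosomes, with 14.3% and 6.85%, but their replicate 2 share was below the 21.6% of the isolated peaks. On X they had 10.6% and 11.6%. These values compare 2 libraries of unknown depth, and the part of depth in them was not tested.

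Strength ordered the support of isolated peaks. The combined list, by its name, comes from the same libraries as the replicate lists, so such an order is built in. The values are a description. Those in both replicates had a median −log10 q of 15.2 (14.6 to 16.7), those in replicate 1 alone 6.01, those in replicate 2 alone 6.80 and those in neither 4.53 (4.29 to 4.73). Median widths were 391, 326, 289 and 279 bp in the same order. All 29 isolated peaks in the strongest decile and all 56 in the next were in both replicates. The share then fell to 79.5% in decile 4, 47.1% in decile 5 and 22.2% in decile 6, and 0 of 50 were in both in the weakest decile (exact upper limit 7.11%). The other narrow peaks had 83.5%, 52.8% and 23.5% in deciles 4 to 6, inside the intervals of the isolated peaks. In decile 9, 42 of 64 isolated peaks were in neither replicate (65.6%, 52.7 to 77.0), against 83.9% (80.2 to 87.1) of other narrow peaks. In every other decile the intervals of these 2 groups overlapped, for the share in both and for the share in neither.

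**Figure D3:**
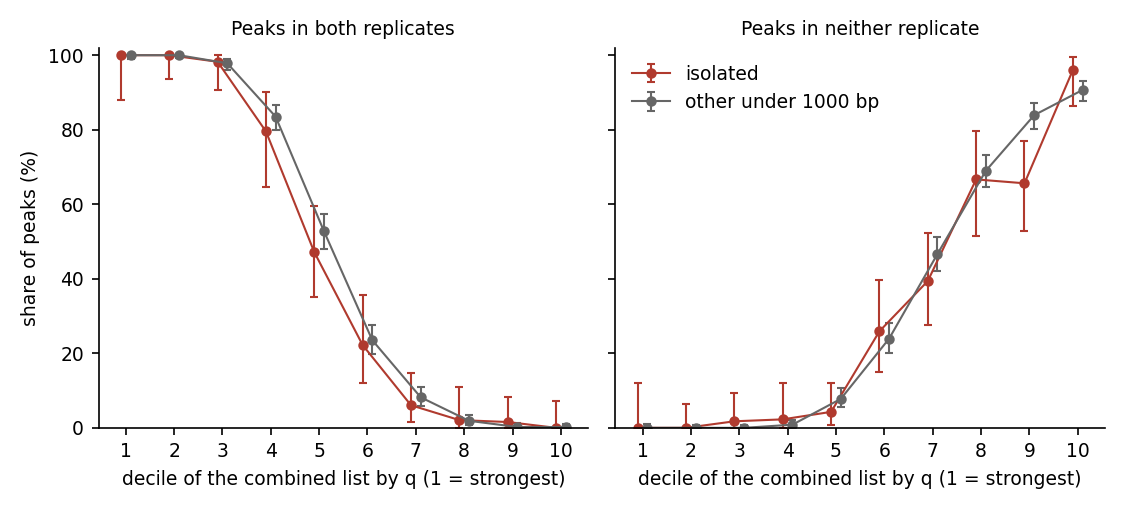
Points give the share of peaks (y axis, %) found in both replicates (left) and in neither (right) in each decile of the combined list by q (x axis, 1 is the strongest), for the isolated and the other peaks under 1000 bp, with exact 95% intervals. The 2 groups follow the same curve, with 47.1% and 52.8% in both replicates in decile 5, and they part in decile 9, where 65.6% and 83.9% were in neither.

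The share found in both replicates ran from 33.0% to 48.4% over the chromosomes, and differences between chromosomes were not tested. The other peaks in this paragraph are all non-isolated peaks of a chromosome. They include those of 1000 bp or wider and were not weighted to like strength. On V, 61 of 126 isolated peaks were in both replicates (48.4%, exact 95% interval 39.4 to 57.5), and X had 55 of 117 (47.0%, 37.7 to 56.5). The other peaks of V had 46.2% and those of X 42.3%, inside these intervals. I had 26 of 76 (34.2%, 23.7 to 46.0), against 41.7% of its other peaks. II had 32 of 97 (33.0%, 23.8 to 43.3), and its other peaks had 47.2%, above that interval. The median −log10 q on II was 7.52 for the isolated and 8.23 for the other peaks. In replicate 2 alone were 27 of 97 isolated peaks of II (27.8%, 19.2 to 37.9), against 15.5% of its other peaks. On IV these were 18 of 82 (22.0%, 13.6 to 32.5) and 13.1%, and on III 11 of 40 (27.5%, 14.6 to 43.9) and 15.1%. The share of the other peaks lay below the interval on II and IV, and inside it on I, III, V and X. On I, 34 of 76 were in neither replicate (44.7%, 33.3 to 56.6), against 40.4% of the other peaks of I. III had the smallest share in neither among the isolated peaks, 8 of 40 (20.0%, 9.05 to 35.6), and also among the other peaks (25.5%). Within V, 29 of the 57 isolated peaks of the middle part (50.9%) and 22 of 40 on the right (55.0%) were in both, against 10 of 29 on the left (34.5%). Their median −log10 q was 8.69, 9.46 and 6.35 in the same order, so the parts also differed in strength. The shares of the other peaks in these parts are not given here, and the difference was not tested.

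Median strength showed no steady trend with the gap. The 280 peaks whose smaller gap was under 30000 bp had a median −log10 q of 8.15 (7.14 to 8.89) and 43.6% were in both replicates. The 133 peaks with 30000 to under 40000 bp had 7.44 (6.39 to 8.46) and 41.4%. The 75 peaks with 40000 to under 50000 bp had 8.41 (6.43 to 10.1) and 46.7%. The 50 most remote, with 50000 bp or more, had a median of 6.15 (5.45 to 9.07), and 15 of them were in both (exact interval 17.9 to 44.6%). All these intervals overlapped. Isolated peaks were stronger than both neighbours in 166 of 538 cases (30.9%) and weaker than both in 175 (32.5%). For other narrow peaks these shares were 31.7% and 34.5%.

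**Figure D4:**
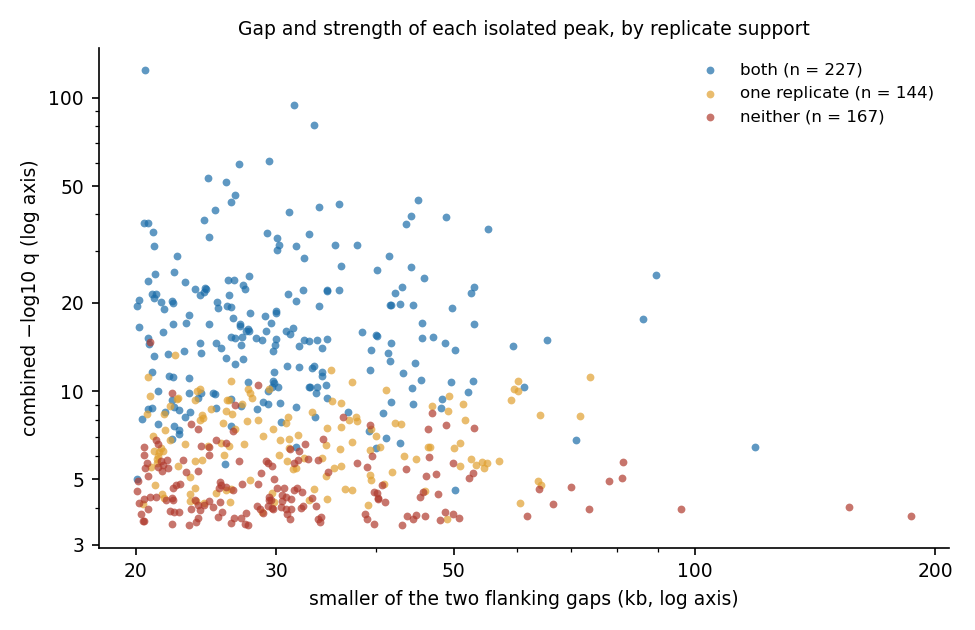
Each point is an isolated peak, with the smaller of its flanking gaps (x axis, kb, log axis) and its combined −log10 q (y axis, log axis), coloured by replicate support. Blue points, in both replicates, have a median of 15.2 and red points, in neither, a median of 4.53, and 50 points lie at or beyond 50 kb.

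The strongest isolated site was on X from 2996561 to 2997485 in build WS180, with a gap of 20567 bp on the left and 38398 bp on the right. Its q was 1.60e-124 in the combined list, 2.34e-55 in replicate 1 and 5.99e-59 in replicate 2. It ranked 26 in the combined list of all peaks. The second, on X from 7068137 to 7068757, stood 106653 bp from its left neighbour. Its q was 6.79e-95, with 1.68e-68 in replicate 1 and 1.44e-65 in replicate 2. Each replicate gave this second site the smaller q, so the order of the top pair was the reverse in both.

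Next came a pair near the right end of I. The site from 14570024 to 14570710 had q values of 2.25e-81 in the combined list, 7.52e-37 in replicate 1 and 1.71e-37 in replicate 2. The site from 14469151 to 14469523 was 373 bp wide and had 2.74e-60, with 5.19e-30 and 1.67e-44. The replicates were close at the first of these and apart at the second, where replicate 2 was stronger. On V, the site from 17951074 to 17951772 had a combined q of 1.18e-61 and that from 10466488 to 10467453 had 5.31e-54, each with a smaller q in replicate 1. On III, where isolated sites were few, the strongest ran from 12740019 to 12740828, with 3.18e-52, 2.89e-26 in replicate 1 and 1.89e-24 in replicate 2. The remaining 3 of the 10 strongest in both replicates were on X from 2852295 to 2853015 (1.72e-47) and from 5429203 to 5429861 (1.96e-45), and on IV from 14464052 to 14464428 (9.48e-45). All 10 belonged to the strongest decile of the list, 4 of them on X and none on II.

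The 5 strongest isolated peaks in neither replicate fell in deciles 3 to 5 of the combined list. On I from 1339671 to 1340437, a peak of 767 bp had a combined q of 2.24e-15 and no overlapping replicate peak. It was in decile 3, where 0 of 475 non-isolated peaks lacked replicate support. The next were on IV from 2928439 to 2928749 (3.10e-11), on I from 7194790 to 7195150 (1.50e-10), on IV from 1980990 to 1981312 (1.12e-09) and on II from 2148325 to 2148636 (3.86e-09). The last of these closes the series of 9 on II. In decile 4, 1 of 44 isolated peaks (2.27%) was in neither replicate, against 4 of 473 other narrow peaks (0.846%). In decile 5 these were 3 of 70 (4.29%) and 35 of 451 (7.76%), so such peaks were not particular to isolated ones there.

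The 5 peaks with the largest smaller gap mostly lay below the isolated median −log10 q of 7.76. They are too few to show a trend, and none was steady over the gap classes above. On V from 3006578 to 3006845, a peak had 202886 bp free on the left and 186295 bp on the right, and a combined q of 0.000179 with no replicate support. On II from 1663553 to 1663827 the gaps were 161247 and 156204 bp and q was 9.16e-05, in neither replicate. On V from 3315358 to 3315644, both replicates held the peak, with 4.51e-05 and 0.000147, and the combined q was 3.70e-07. The fourth, on I from 12427831 to 12428129, had 0.000109 and no support. The fifth, on V from 16131878 to 16132260, was the exception in strength, at 1.36e-25 in the combined list, 1.64e-14 in replicate 1 and 8.48e-12 in replicate 2, and 89388 bp to its nearer neighbour.

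At the thresholds, the peaks just inside and just outside the gap minimum were mixed in strength. Just inside were III from 931225 to 931822 with a smaller gap of 20097 bp, and the neighbouring pair on V from 9769259 to 9769686 and from 9789793 to 9790174, which are 20106 bp apart. Just outside were III from 2171817 to 2172484 (19985 bp), IV from 6096977 to 6097858 (19927 bp) and II from 10687754 to 10687946 (19893 bp). The widest isolated peaks were 966, 957 and 955 bp, with −log10 q of 53.3, 37.4 and 4.95. The narrowest of those excluded by width were 1013, 1029 and 1096 bp, with −log10 q of 12.4, 20.2 and 87.9. The 11 peaks that failed on width alone had a median −log10 q of 39.7, and 10 of them were in both replicates.

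Where both replicates held an isolated peak, the replicate peaks lay close together. Each had to overlap the same combined interval under 1000 bp, so the matching itself limits their distance, and the values are a description. The midpoints of the replicate peaks were a median of 23.5 bp apart over 227 sites, and 181 of them (79.7%) were within 50 bp. The other narrow peaks had the same median, 23.5 bp, and 78.1% within 50 bp. The peak was 342 bp wide in replicate 1 and 345 bp in replicate 2 by the median, against 391 bp in the combined list. None of these 227 overlapped more than 1 peak of either replicate.

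Replicate strengths at these 227 sites ran together. Median −log10 q was 7.72 in replicate 1 and 8.18 in replicate 2, with ranges of 3.68 to 67.8 and 3.51 to 64.8. The log2 ratio of −log10 q in replicate 1 to that in replicate 2 had a median of -0.03 (interval -0.13 to 0.02). Folds here are ratios of −log10 q, not of q or enrichment. Within 1.5-fold were 189 sites (83.3%), against 78.8% of 2081 other narrow sites. The Spearman correlation was 0.808 across the isolated sites and 0.803 across those other sites. Sites in a list share its library and depth, so these correlations are descriptions. Over 2-fold apart were 6 of the 227 isolated and 69 of the 2081 other narrow sites. The largest ratio toward replicate 2, picked out after its value was seen, was on II from 14528256 to 14528599. Its −log10 q was 4.92 in replicate 1 (q of 1.19e-05) and 13.9 in replicate 2 (1.20e-14). On X, 35 of 55 isolated sites were stronger in replicate 1 (63.6%, exact 95% interval 49.6 to 76.2), against 72 of 172 on the autosomes (41.9%, 34.4 to 49.6). The other narrow peaks had 66.7% on X and 46.3% on the autosomes.

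**Figure D5:**
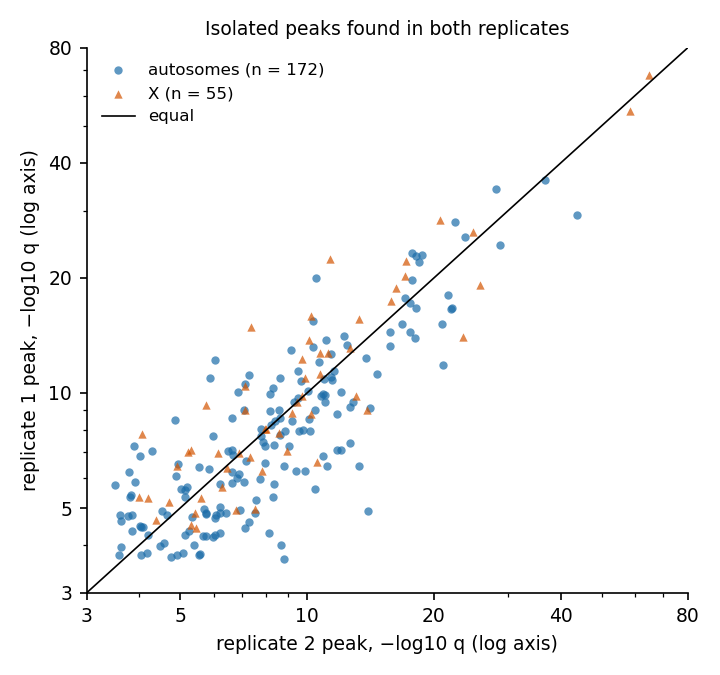
Each point is 1 of the 227 isolated sites found in both replicates, with −log10 q in replicate 2 (x axis, log axis) and in replicate 1 (y axis, log axis); triangles are on X, circles on autosomes, and the line marks equal values. Triangles lie above the line at 35 of 55 sites and circles at 72 of 172.

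The gaps carried over to the replicate lists, which the rule nearly fixes. Only 22 of 2907 replicate 1 peaks (0.757%) and 74 of 3319 replicate 2 peaks (2.23%) overlapped no combined peak, so a long gap in the combined list leaves few replicate peaks to fill it. The counts that follow restate the gaps that chose the members. All 270 isolated peaks with a replicate 1 match were isolated by the same rule in the replicate 1 list, and 321 of the 328 with a replicate 2 match were in the replicate 2 list. The rule found 716 isolated peaks in the replicate 1 list (24.6%) and 696 in that of replicate 2 (20.97%), as shorter lists leave longer gaps. Of the 716, 270 lay on an isolated combined peak, 435 on another combined peak and 11 on none. When gaps were measured to the peaks of all 3 lists, 524 of the 538 (97.4%) met the minimum, a count that the few unmatched replicate peaks could hardly lower. The replicate peaks that broke the gap of the other 14, and all others inside the gaps that the combined list lacks, had a −log10 q under 5.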

How the data were processed

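The deposited data were 3 peak lists, for ChIP replicate 1, ChIP replicate 2 and the combined libraries. Per the file headers, coordinates are in WormBase WS180 and the authors' caller was PeakSeq; the authors deposited 1 q-value per peak, which is its p-value after correction for multiple testing. What aligner and threshold were used, how the input libraries entered and how the combined list was made is not given in the sources used here. Positions are 1-based.

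Gaps were the next start minus the previous end minus 1. Replicate support was an overlap of at least 1 bp, and the strongest overlapping peak gave the replicate q. The span of a chromosome went from its leftmost to its rightmost peak in any list, and its 3 equal parts stood in for arms and centre, since chromosome lengths of WS180 were not used here. Shares carry exact Clopper-Pearson 95% intervals and medians order-statistic 95% intervals, both for counting error over peaks, which are not replicates. No test was run, because every measure comes from the libraries that defined the peaks. The rule, members and named regions were chosen with earlier results of these data known. Named were the 10 strongest in both replicates, the 5 strongest in neither, the 5 with the largest smaller gap and 3 on each side of each threshold. Alternatives changed the gap, width, overlap, lists, chromosomes and outer parts. The functions were tested on simulated lists. Intervals came from SciPy 1.17.1 under Python 3.11.15; pandas 2.3.3 and NumPy 2.4.6 handled the tables, and matplotlib 3.10.9 drew the figures.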

Additional observations from a re-analysis of the deposited data

How the results depend on the processing

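Of 60 alternative values for 8 results, 50 stayed within the interval of the reported value or, for the count, within 1.5 times it. Some alternatives changed few members, with 549 without the width limit and 524 with gaps to all 3 lists. Their values could hardly move, so the tally is no measure of robustness. The number of isolated peaks was 1308 with a gap minimum of 10000 bp and 258 with 30000 bp. V and X held 36.0% of them at 10000 bp and 52.6% with chromosome I left out, as fewer peaks then make up the whole. The outer parts held 54.1% (49.8 to 58.4) when each took 25% of the span, which is a smaller part of it. Of the other peaks 43.8% lay there, below that interval. With the 3 equal parts, the 63.5% of the other peaks lay inside the interval. With a single replicate list, the share with support ranged from 50.2% (without replicate 2) to 60.97% (without replicate 1) and the share without it from 39.0% to 49.8%, since fewer lists were asked. The difference in support between isolated and all other peaks was -4.69 percentage points (interval -9.14 to -0.16). With a gap minimum of 10000 bp it was -3.25 (-6.38 to -0.099). With midpoints within 200 bp it was -2.36 (-6.80 to 2.16), and against the other narrow peaks -3.22 (-7.68 to 1.31), so these last intervals included both signs. It ranged from -4.02 to 0.49 with 1 replicate left out, and turned positive without replicate 1, that is, in the replicate 2 list. It was -0.92 after weighting to like strength. The alternative without V was chosen after seeing the data. No paired analysis was possible because no input library has values in these lists. Depth is unknown, so a weak peak missing from a list cannot be called absent.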

Other observations

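One isolated peak was weaker in the combined list than in each replicate. On III from 931225 to 931822, q was 9.60e-06 in the combined list, 3.90e-08 in replicate 1 and 2.42e-13 in replicate 2. Among the 227 isolated peaks in both replicates it was the single such case, and there was none (0) among 2081 other peaks under 1000 bp in both. It was noticed after its values were seen.

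Intervals under 100 bp were present among the isolated peaks. There were 4 among the 538, all in neither replicate. The 2 narrowest were 15 bp on II from 10738193 to 10738207 (q of 0.000268) and 16 bp on II from 3745968 to 3745983 (9.00e-05). The other narrow peaks included 80 of this kind among 4582, and the whole combined list 84 among 5320, so they were not particular to isolated peaks. The replicate support of those 80 is not given here.

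Of the 11 peaks with long gaps that were 1000 bp or wider, the 3 strongest were all on X. They ran from 13143030 to 13145617 (q of 8.99e-110), from 17479466 to 17480561 (1.36e-88) and from 14525413 to 14526584 (3.88e-84).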
